A study of Mus musculus with 6 samples.

Results

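Creatine kinase and adenylate energy transfer were followed through 7 genes, Ckm, Ckb, Ckmt2, Slc6a8, Ak1, Slc25a4 and Mb, taken by name from the 38293 genes of a bulk RNA-seq count table by matching each Ensembl identifier to its symbol. All 7 were in the table and all 7 passed the filter on low counts, as 7 of the 14746 genes tested. The libraries came from hearts of 3 WT and 3 Zeb2 cKO mice, C57BL/6J (backcrossed), collected 14 days after permanent occlusion of the left anterior descending coronary artery, a model of myocardial infarction (MI). Every mouse had an infarct, so a sham-operated heart is not part of the comparison. The methods describe the group labelled WT as Zeb2 fl/fl mice, which carry floxed Zeb2 alleles without deletion, and Zeb2 cKO as Zeb2 fl/fl mice in which Cre under the αMHC promoter, active in cardiomyocytes, deletes Zeb2. An effect of Cre and an effect of the deletion cannot be told apart in this design. The labels place the tissue in the border region of the infarct, whereas the methods name the remote zone.

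Heart muscle makes most of its ATP in mitochondria and uses it at the myofibrils and the calcium pumps. The adenine nucleotide translocase carries ATP out of the mitochondrial matrix in exchange for ADP. Mitochondrial creatine kinase uses ATP at the inner membrane to make phosphocreatine, and cytosolic creatine kinase at the sites of use turns phosphocreatine and ADP back into ATP. Adenylate kinase recovers ATP from ADP and gives AMP, the signal read by AMP-activated kinase, and myoglobin stores oxygen and carries it towards the mitochondria.

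Zeb2, the targeted gene, was read first as a check of the labels. Its CPM values (counts scaled by library total with TMM normalisation) were 61.3, 116 and 71.9 in WT replicates 1 to 3 and 59.6, 72.6 and 66.5 in Zeb2 cKO replicates 1 to 3. The groups overlapped, and the highest library was WT replicate 2. The log2 fold change of Zeb2 cKO over WT was -0.33 (SE 0.25, edgeR quasi-likelihood test, Benjamini-Hochberg adjusted p = 0.957), and -0.0058 (SE 0.12) without WT replicate 2. A count per gene in whole tissue also holds Zeb2 RNA from cells other than cardiomyocytes and does not resolve the deleted part, so the genotype labels could not be checked at this level.

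WT replicate 2 stood apart from the other 5 libraries. Its root mean square distance in log2 CPM from the mean of the others was 0.74, against 0.298 to 0.4 for the other libraries. Its 9 fibroblast markers summed to 10386 CPM, against 1782 to 2516 in the others, and its 9 macrophage markers to 871 CPM, against 227 to 314. The 11 cardiomyocyte markers summed to 13627 CPM, against 22431 to 28192, and the 6 endothelial markers to 336 CPM, against 456 to 553. In bulk tissue, fewer cardiomyocytes and less RNA of a gene per cardiomyocyte cannot be told apart. Fold changes below are therefore given with and without this library. Library totals were 37288174 to 51136331 counts, of which 33.0 to 39.5% came from genes outside the mitochondrial genome, and CPM values are relative to all counts, mitochondrially encoded genes included. The 9 skeletal muscle markers, read because Ckm is also a skeletal muscle gene, summed to 0.781 to 1.28 CPM, and Myog was at 0 in all 6 libraries. The red blood cell markers summed to 135 to 243 CPM. The sums of 3 lists, for atrial cardiomyocytes, adipocytes and Schwann cells, did not overlap between the groups. The 5 atrial cardiomyocyte markers summed to 313 to 718 CPM in WT and 149 to 193 CPM in Zeb2 cKO, with Bmp10 at 0. This lower sum in Zeb2 cKO did not hold for most of the list. Of the 4 tested atrial markers, 3 had a log2 fold change above 0 and 1 below, from -1.42 to 2.39. The highest sum was that of WT replicate 2, although this library was the lowest for 3 of the 4 tested atrial markers and the highest for 1. The 6 adipocyte markers summed to 0.342 to 0.911 CPM in WT and 0.968 to 2.9 CPM in Zeb2 cKO, and the 5 Schwann cell markers to 9.55 to 15.5 CPM and 17.3 to 24.8 CPM. The part of these cells in the results was not tested.

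Ckm, Ckb and Ckmt2 are the creatine kinases among the 7 genes, and bases upstream of their RefSeq starts (GRCm38.p6) are shown because Ckm and Ckmt2 moved together across the libraries while Ckb did not. The stretches are chr7:19410844-19411024 on the plus strand for Ckm, chr13:91876886-91877135 on the minus strand for Ckmt2 and chr12:111672339-111672588 on the minus strand for Ckb. Each starts 250 bases upstream of the RefSeq start and was ended before the first annotated exon of its gene, which left 181 bases for Ckm. Capitals mark E-boxes (CANNTG on either strand) and the TATA box (TATAAA on either strand).
Ckm: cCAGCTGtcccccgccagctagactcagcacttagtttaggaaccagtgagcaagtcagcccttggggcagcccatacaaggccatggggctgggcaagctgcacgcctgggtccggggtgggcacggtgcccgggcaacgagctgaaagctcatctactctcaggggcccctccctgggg
Ckmt2: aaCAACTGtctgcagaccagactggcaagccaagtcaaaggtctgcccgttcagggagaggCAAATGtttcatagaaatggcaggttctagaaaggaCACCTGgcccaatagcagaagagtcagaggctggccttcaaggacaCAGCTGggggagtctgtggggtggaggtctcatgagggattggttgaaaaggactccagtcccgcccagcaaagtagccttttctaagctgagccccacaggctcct
Ckb: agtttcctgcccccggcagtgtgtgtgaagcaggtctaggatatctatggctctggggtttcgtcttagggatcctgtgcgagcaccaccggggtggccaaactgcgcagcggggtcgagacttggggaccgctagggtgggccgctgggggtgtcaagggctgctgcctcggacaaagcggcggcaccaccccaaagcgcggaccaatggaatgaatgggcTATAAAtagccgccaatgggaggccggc

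The Ckmt2 stretch held 4 E-boxes, of which the match at -153 reads CACCTG, the letters bound by ZEB proteins. Ckm had 1 E-box, at -249, in its 181 bases, and Ckb had 0 in 250. The Ckm stretch ended at -70, so the bases nearer its start were not searched for an E-box or a TATA box. The Ckb stretch held a TATA box at -28, overlapped by its only match to the MEF2 consensus, at -29. Of all 32851 RefSeq promoters, 66.2% held an E-box in the 250 bases upstream, 17.2% held CACCTG, 12.4% a TATA box and 0.508% a MEF2 match. These matches describe letters only, and the data hold no measurement of binding at them.

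Ckm (7:19404776-19422841, plus strand) encodes the muscle-type subunit of cytosolic creatine kinase. Its counts were 739, 277 and 617 CPM in WT replicates 1 to 3 and 757, 616 and 550.4 CPM in Zeb2 cKO replicates 1 to 3. WT replicate 2 was the lowest and Zeb2 cKO replicate 1 the highest library, and the other WT libraries lay within the range of the Zeb2 cKO group. The means were 544 ± 239 CPM in WT and 641 ± 106 CPM in Zeb2 cKO (SD, n = 3 each). The log2 fold change was 0.24 (SE 0.36, 95% interval -0.62 to 1.10), with an adjusted p of 0.957 by the edgeR quasi-likelihood test. Without WT replicate 2 it was -0.078 (SE 0.17, interval -0.47 to 0.31), so the sign of the estimate turned and the interval narrowed.

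Ckb (12:111669361-111672338, minus strand) encodes the brain-type subunit, which many cell types other than muscle also make. Its counts were 17.5, 22.6 and 15 CPM in WT and 12.9, 16.0 and 19.7 CPM in Zeb2 cKO. Here WT replicate 2 was the highest library, not the lowest, and the groups overlapped. Ckb had a log2 fold change of -0.18 (SE 0.21, interval -0.68 to 0.32, adjusted p = 0.957 by the edgeR quasi-likelihood test) and -0.0033 (SE 0.18, interval -0.43 to 0.42) without WT replicate 2. Smooth muscle and Schwann cells are known to make brain-type creatine kinase, and their markers went both ways in WT replicate 2. This library was the lowest for 2 and the highest for 1 of the 5 smooth muscle markers, and the lowest for 1 and the highest for 1 of the 3 tested Schwann cell markers. The 5 smooth muscle markers summed to 92.9 CPM there, against 94.0 to 168 CPM in the other 5 libraries, and the 5 Schwann cell markers to 9.55 CPM, against 13 to 24.8 CPM. The summed fibroblast and macrophage markers were highest in that library, as given above. The part of any of these 4 cell types in the Ckb value was not tested. Reads of Ckb may also be split with Gm12892, whose transcript matches 77.9% of the main Ckb mRNA (1472 bases) at 95% identity or more over at least 75 bases, and which was itself counted at 1.57 to 2.76 CPM.

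Ckmt2 (13:91853387-91876885, minus strand) encodes the mitochondrial creatine kinase of heart and skeletal muscle. It stood at 915, 402 and 888 CPM in WT and at 914, 860.3 and 708 CPM in Zeb2 cKO. As for Ckm, WT replicate 2 was lowest, followed by Zeb2 cKO replicates 3 and 2, and the groups overlapped. The log2 fold change was 0.17 (SE 0.33, interval -0.62 to 0.96, adjusted p = 0.957 by the edgeR quasi-likelihood test), and -0.12 (SE 0.14, interval -0.45 to 0.21) without WT replicate 2. Its counterpart outside striated muscle, Ckmt1, reached 0.417 CPM at most.

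Slc6a8 (X:73673150-73682502, plus strand) encodes the transporter that brings creatine into the cell, since heart muscle makes little of its own. Its counts were 78.4, 62.1 and 78.3 CPM in WT and 63.4, 71.0 and 71.7 CPM in Zeb2 cKO. WT replicates 1 and 3 were the highest of the 6 libraries, but WT replicate 2 was the lowest, so the groups overlapped. The log2 fold change was -0.086 (SE 0.14, interval -0.42 to 0.25), with an adjusted p of 0.957 by the edgeR quasi-likelihood test. Without WT replicate 2 the groups did not overlap, which held for 1 of the 7 genes, beside 15.5% of all genes tested, and the log2 fold change was -0.19 (SE 0.099, interval -0.42 to 0.044). This value had an unadjusted p of 0.0981 by the edgeR quasi-likelihood test and an adjusted p of 0.9997. Among the 7 genes it was the smallest unadjusted p in either fit, and both intervals included 0.

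Ak1 (2:32621758-32635058, plus strand) encodes the cytosolic adenylate kinase of muscle. Its counts were 201.5, 106 and 176 CPM in WT and 206, 199 and 157 CPM in Zeb2 cKO. WT replicate 2 was again the lowest library, and every other WT value lay between those of Zeb2 cKO replicates 3 and 1. Zeb2 cKO over WT gave a log2 fold change of 0.21 (SE 0.26, interval -0.40 to 0.82, adjusted p = 0.957 by the edgeR quasi-likelihood test), and -0.011 (SE 0.14, interval -0.35 to 0.33) without WT replicate 2.

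Slc25a4 (8:46206797-46211284, minus strand) encodes ANT1, the adenine nucleotide translocase of heart and skeletal muscle. It was measured at 1386, 560.3 and 1287 CPM in WT and at 1345, 1373 and 1123 CPM in Zeb2 cKO. The lowest library, WT replicate 2, held less than the next lowest, Zeb2 cKO replicate 3, by a factor of 0.499, and the highest was WT replicate 1. The log2 fold change was 0.25 (SE 0.35, interval -0.59 to 1.09, adjusted p = 0.957 by the edgeR quasi-likelihood test), the highest of the 7 genes. Without WT replicate 2 it was -0.059 (SE 0.14, interval -0.38 to 0.27).

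Mb (15:77015487-77050670, minus strand) encodes myoglobin, the oxygen-binding protein of striated muscle. Its counts were 2555, 1863 and 2658 CPM in WT and 2729, 2611 and 2118 CPM in Zeb2 cKO. WT replicate 2 was lowest, but by less than for Ckm or Slc25a4, and the groups overlapped. Its log2 fold change was 0.076 (SE 0.25, interval -0.51 to 0.66, adjusted p = 0.976 by the edgeR quasi-likelihood test), and -0.065 (SE 0.15, interval -0.42 to 0.29) without WT replicate 2. An annotated antisense transcript, Gm49540, covers 27.6% of the Mb exon length on the opposite strand, and the strand option of the counting is not given in the sources used here.

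**Figure D1:**
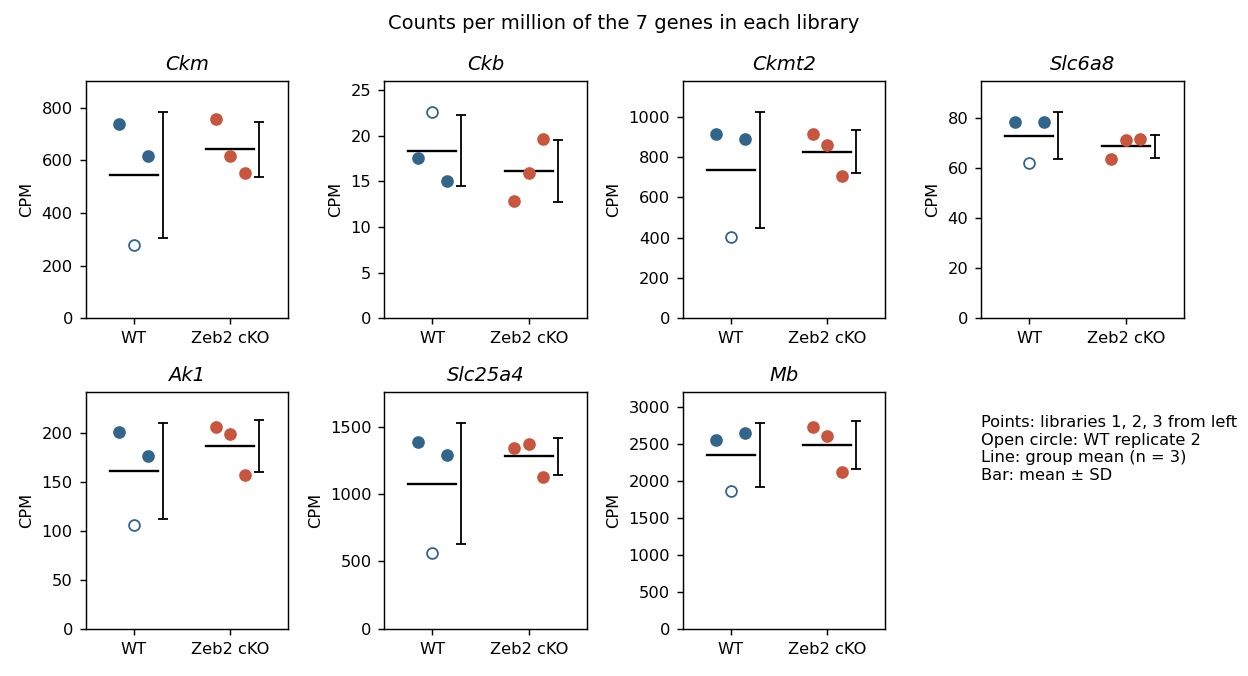
CPM (y axis from 0) of the 7 genes in the 3 WT (blue) and 3 Zeb2 cKO (red) libraries, with the open circle marking WT replicate 2, lines at the group means and bars of mean ± SD (n = 3). WT replicate 2 is the lowest library in 6 panels and the highest in the Ckb panel, and the groups overlap in all 7.

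None of the 7 genes passed an adjusted p of 0.05, where 0 of the 14746 genes tested did by edgeR and 2 did by DESeq2, none of them among the 7. At an unadjusted p under 0.05, 0 of the 7 passed, beside 280 of all genes tested (1.9%). Non-overlapping groups were found for 0 of the 7, beside 6.36% of all genes tested (2.97% with Zeb2 cKO lower). With all 6 libraries, 5 of the 7 fold changes were above 0 and 2 below, beside 7167 of 14746 genes above 0. The median was 0.17 on the log2 scale, against -0.0069 for all genes tested. Without WT replicate 2, all 7 were below 0, beside 7350 of 14966 genes, with a median of -0.065 against 0.0025 for all genes. In that fit 0 of the 7 passed an unadjusted p of 0.05, beside 2.63% of 14966 genes. Of the 11 cardiomyocyte markers, 10 were above 0 with all 6 libraries (median 0.18) and 9 below 0 without WT replicate 2 (median -0.080). The intervals without that library still allowed Ckm to be lower in Zeb2 cKO by a factor of 0.724 or higher by 1.24, and Slc6a8 to be lower by 0.749 or higher by 1.03.

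**Figure D2:**
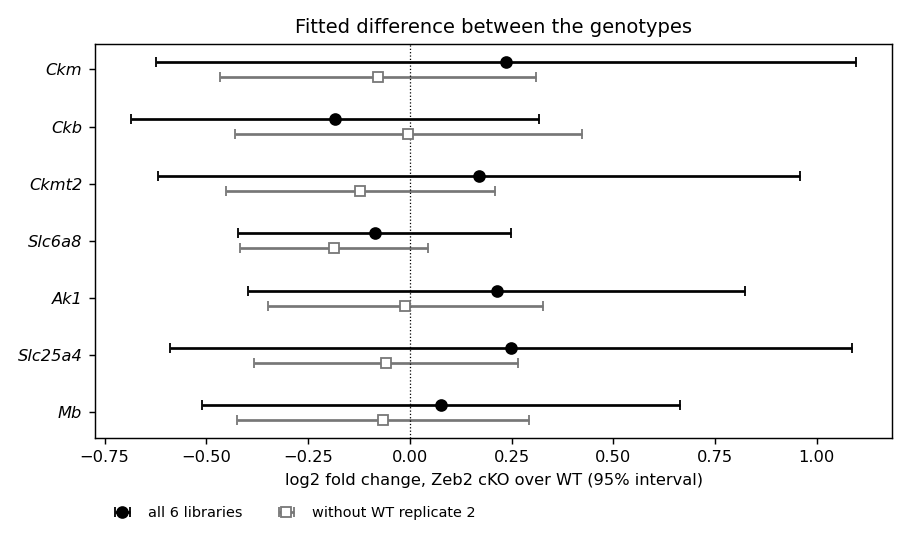
Log2 fold change of Zeb2 cKO over WT for the 7 genes on the x axis, with 95% intervals from the edgeR fit of all 6 libraries (filled circles) and of the 5 libraries without WT replicate 2 (open squares). All 14 intervals include 0, and 5 estimates move from above to below 0 when the library is left out.

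The spread within the WT group exceeded that within the Zeb2 cKO group for most of these genes. The coefficient of variation in WT was 44.0% for Ckm, 41.8% for Slc25a4 and 39.3% for Ckmt2, against 16.5%, 10.7% and 13% in Zeb2 cKO. For Ckb it was 21.1% in WT and 21% in Zeb2 cKO. Among the 5 libraries other than WT replicate 2, the highest value was 1.23 times the lowest for Slc25a4, 1.38 times for Ckm and 1.53 times for Ckb. Counting error was small beside these spreads, at 4.17% for the lowest Ckb count and under 2% for the other 6 genes.

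In WT replicate 2 the 7 genes differed from the other libraries to unequal degrees. Relative to the mean of the other 5 libraries, its log2 CPM differed by -1.23 for Ckm, -1.21 for Slc25a4 and -1.09 for Ckmt2, which leaves 42.5%, 43.1% and 47.1% of the level elsewhere. The difference was -0.81 for Ak1, -0.44 for Mb and -0.22 for Slc6a8. For Ckb it was 0.49, or 141% of the level elsewhere. This library was the lowest of 6 for 6 of the 7 genes, beside 34.6% of all genes tested, and the highest for Ckb, beside 35.2%, and it lay more than 0.5 below the others for 4 of them, beside 18.4%. The 11 cardiomyocyte markers differed by -1.43 (Ryr2, the calcium release channel) to -0.25 (Myl2, a ventricular myosin light chain), with a mean of -0.85, and the library was lowest for 10 of them. Set against that mean, Ckm differed by -0.38, Slc25a4 by -0.36, Ckmt2 by -0.23, Ak1 by 0.043, Mb by 0.42, Slc6a8 by 0.63 and Ckb by 1.35. The markers themselves spread from -0.58 (Ryr2) to 0.60 (Myl2) around the same mean, so Slc6a8 and Ckb were the members outside their range. Only 1 library shows this pattern, and it has no replicate check.

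**Figure D3:**
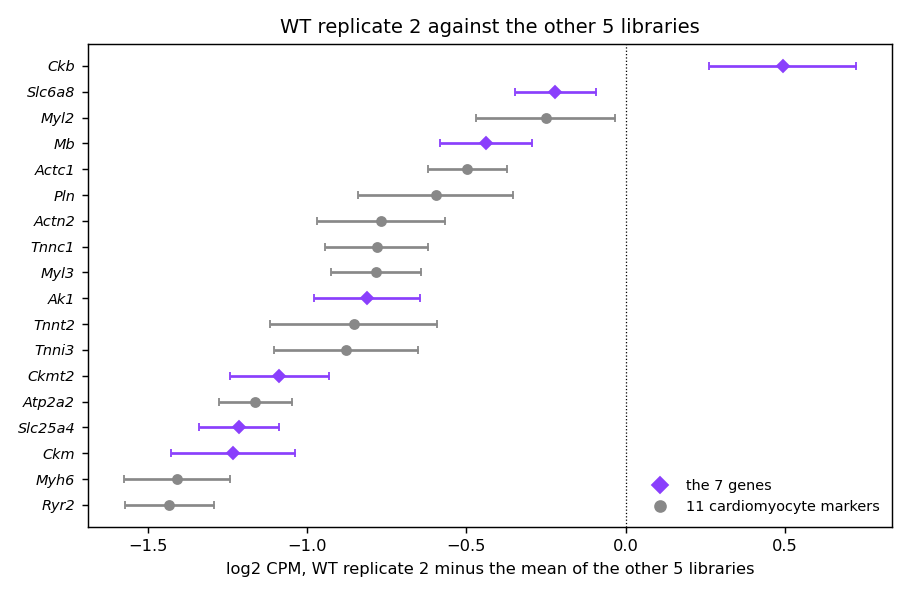
Log2 CPM of WT replicate 2 minus the mean of the other 5 libraries (x axis) for the 7 genes (diamonds) and the 11 cardiomyocyte markers (circles), with bars of ± the SD of those 5 libraries. Ckm, Slc25a4 and Ckmt2 lie near -1.23 to -1.09 among the lower markers, and Ckb is the one gene above 0.

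Ratios of related genes within a library do not depend on the library scaling. Per exon length, Ckb was 2.39, 8.22 and 2.44% of Ckm in WT and 1.72, 2.61 and 3.60% in Zeb2 cKO. The ratio was highest in WT replicate 2, at 3.31 times the level of the other 5 libraries, and the groups overlapped (log2 difference -0.52, two-sided exact permutation p = 0.7). Without that library the log2 difference was 0.064. With 3 libraries in each group this test cannot give a p below 0.1, and adjusted over the 3 ratios tested the p is 0.7 for each.

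Slc25a5, which encodes ANT2, the translocase of dividing and non-muscle cells, was 5.29, 10.7 and 6.88% of Slc25a4 in WT and 5.85, 5.32 and 6.35% in Zeb2 cKO. WT replicate 2 again had the highest ratio, and the groups overlapped (log2 difference -0.32, exact permutation p = 0.5, and -0.050 without WT replicate 2). The mitochondrial to cytosolic ratio, Ckmt2 to Ckm, was 243, 284 and 282% in WT and 237, 274 and 252% in Zeb2 cKO. This ratio kept within a narrow range, WT replicate 2 included, with a log2 difference of -0.085 between the groups (exact permutation p = 0.4) and of -0.045 without that library. Of Slc25a5, 72.3% of the longest transcript matches transcripts of Gm13798, Gm5529 or Gm5560, so its level is uncertain.

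**Figure D4:**
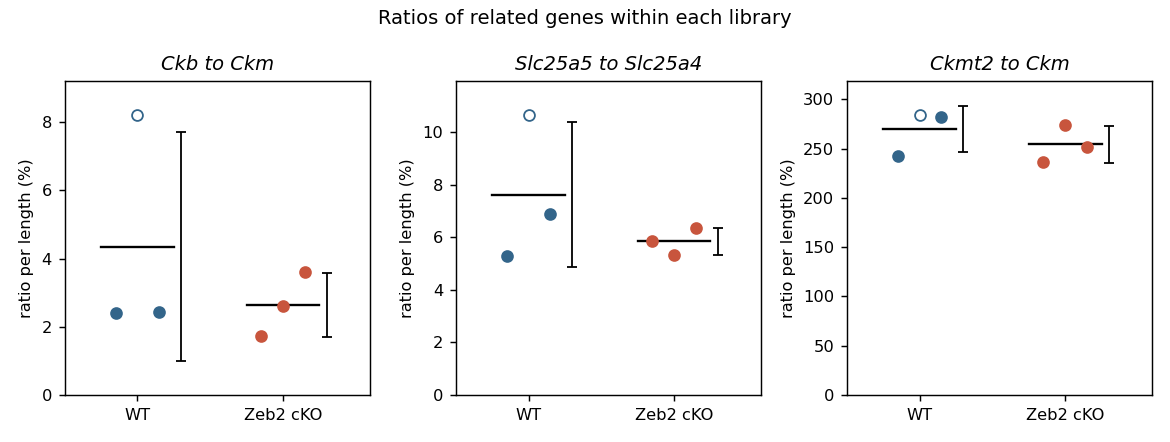
Ratios per exon length, in percent (y axes from 0), of Ckb to Ckm, Slc25a5 to Slc25a4 and Ckmt2 to Ckm in each library, with points, means and SD bars as in the plot of counts by library. WT replicate 2 (open circle) lies above all others for Ckb to Ckm (8.22%) and Slc25a5 to Slc25a4 (10.7%), and at 284% beside 282% in WT replicate 3 for Ckmt2 to Ckm.

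Levels were compared between genes only per kilobase of exon. Over the 6 libraries, Mb had the highest mean, 1624 CPM per kb, followed by Ckmt2 at 526, Slc25a4 at 501, Ckm at 204, Ak1 at 67.2, Slc6a8 at 13.6 and Ckb at 5.97. Ckmt2 and Slc25a4 did not differ beyond their spread, since Ckmt2 was higher in 4 of 6 libraries and their ratio ran from 0.992 to 1.14. The other neighbours kept their order in 6 of 6 libraries. This order depends in part on the annotated length. Ckm has a union of exons of 2913 bases, and the transcript that Gencode numbers first has 1235. With the lengths of the first-numbered transcripts, Ckm stood at 480.0 CPM per kb, beside 613 for Slc25a4 and 526 for Ckmt2, and Mb, with a transcript of 550 bases, at 4404 CPM per kb.

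Within the creatine kinase family, Ckmt2 took 69.9 to 73.3% of the length-scaled counts, Ckm 25.5 to 29.6%, Ckb 0.507 to 1.01% in 5 libraries and 2.09% in WT replicate 2, and Ckmt1 at most 0.0440%. With those lengths the shares of Ckmt2 and Ckm were 49.7 to 53.9% and 44.0 to 49.6%. Ak1 took 70.9 to 73.9% of the Ak1 to Ak9 family in 5 libraries and 63.5% in WT replicate 2. Ak3, the GTP-using kinase of the mitochondrial matrix, took 16.2 to 18.3% and 23.2%. Slc25a4 made up 93.5 to 95% of the translocases and 90.3% in WT replicate 2. The paralogs shared identical runs of at most 20 bases (Ckm and Ckb), 39 bases (Ckmt2 and Ckmt1) and 20 bases (Slc25a4 and Slc25a5), shorter than the 75-base reads.

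Genes whose levels moved most like Ckm were sought among 5895 genes of at least 10 mean CPM, by the root mean square difference of centred log2 CPM over the 6 libraries. The closest were Rbm20, a splicing factor of muscle, Rhot2, which ties mitochondria to their motors, Fitm2 and Plin4, proteins of lipid droplets, and Hadh, an enzyme of fatty acid oxidation, at differences of 0.066 to 0.080 against a median of 0.46. All 5 were lower in WT replicate 2, by -1.22 to -1.15. Ckmt2 took place 23 (0.10) and Slc25a4 place 26 (0.11), Ak1 place 233, Mb place 1203, Slc6a8 place 2502 and Ckb place 5158. For Ckb the closest were Itpripl2, Arhgef40, Spry1, Rflnb and Tmem184b (0.045 to 0.074), which were higher in WT replicate 2 by 0.42 to 0.55. These patterns rest mainly on 1 library and are given as a description.

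The wider pathway was read from a list of 45 other genes of energy transfer, of which 38 were tested. None passed an adjusted p of 0.05 by the edgeR quasi-likelihood test, and 0 passed at an unadjusted p under 0.05. The fold change was above 0 for 25 and below 0 for 13, with a median of 0.053 on the log2 scale. The groups did not overlap for 2 of the 38 genes, Gamt and Prkab2, both lower in Zeb2 cKO. Among all genes tested the share was 6.36% in either direction and 2.97% with Zeb2 cKO lower. Without WT replicate 2 the groups did not overlap for 8 genes of the list, beside 15.5% of all genes tested. In that fit 18 fold changes were above 0 and 20 below, with a median of -0.0018. Atpif1, the inhibitor of the mitochondrial ATP synthase, was then the only gene with an unadjusted p under 0.05, with a log2 fold change of -0.26 (SE 0.10, edgeR quasi-likelihood test, unadjusted p = 0.0384, adjusted p = 0.9997). WT replicate 2 was lowest for 21 of the 38 genes, beside 34.6% of all genes tested, and highest for 9, beside 35.2%.

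Creatine synthesis genes were low in this tissue. Gatm, whose product makes the creatine precursor guanidinoacetate, was counted at 1.91, 15.6 and 5.62 CPM in WT and 4.58, 2.81 and 4.56 CPM in Zeb2 cKO. Its high value was that of WT replicate 2, and the log2 fold change moved from -0.96 (SE 0.67) to 0.087 (SE 0.42) without it. Gamt, whose product methylates guanidinoacetate to creatine, was at 1.78, 2.26 and 1.87 CPM in WT and 1.72, 1.77 and 1.56 CPM in Zeb2 cKO, with a log2 fold change of -0.23 (SE 0.18), and of -0.11 (SE 0.19) without WT replicate 2. The groups did not overlap, by a margin smaller than the spread within either. Ckmt1 had a log2 fold change of -0.57 (SE 0.46), and of -0.34 (SE 0.52) with 5 libraries.

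The most abundant genes of the list per length were Vdac1, Slc25a3, Atpif1, Slc25a5, Vdac2 and Cygb. Vdac1, the main channel of the outer mitochondrial membrane, stood at 84.5 CPM per kb and Slc25a3, the phosphate carrier, at 57.1. Their log2 fold changes were 0.18 (SE 0.21) and 0.24 (SE 0.26), and -0.00086 and 0.017 without WT replicate 2. Vdac2, another channel of that membrane, gave 0.13 (SE 0.17) and 0.0013, and Slc25a5 gave 0.0097 (SE 0.16) and -0.12. Thus all 3 channel genes were above 0 with 6 libraries and within 0.023 of 0 with 5.

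The 4 tested adenylate kinases other than Ak1 gave log2 fold changes of 0.013 to 0.22 with 6 libraries and of -0.066 to 0.089 with 5. Ak5 was not tested. It was at 1.71 CPM in WT replicate 2 and at 0.023 to 0.106 CPM elsewhere. Of the 8 tested genes of the purine nucleotide cycle and AMP removal, 7 were above 0 with 6 libraries, from -0.15 to 0.19 in all, and 5 without WT replicate 2, from -0.21 to 0.24. Adss, an adenylosuccinate synthase, went from -0.15 to 0.24 (SE 0.11), and Nt5c1a, a cytosolic nucleotidase of AMP, from 0.15 to -0.21 (SE 0.14).

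The smallest unadjusted p of the list belonged to Cmpk1, a kinase of UMP and CMP, at 12.9, 21.9 and 14.8 CPM in WT and 12.6, 11.9 and 13.4 CPM in Zeb2 cKO. Its log2 fold change was -0.39 (SE 0.21, edgeR unadjusted p = 0.098), with WT replicate 2 again the high library, and -0.13 (SE 0.11) without it. Prkab2, a regulatory subunit of AMP-activated kinase, was at 31.3, 34.8 and 39.1 CPM in WT and 29.8, 30.4 and 31.1 CPM in Zeb2 cKO, so the groups did not overlap. Its log2 fold change was -0.20 both with all libraries (SE 0.12, edgeR unadjusted p = 0.137) and without WT replicate 2 (SE 0.11). Another subunit, Prkag1, gave 0.25 (SE 0.16), and 0.14 (SE 0.13) with 5 libraries. Nme2, a nucleoside diphosphate kinase, gave -0.46 (SE 0.28), and -0.61 (SE 0.30) with 5 libraries, but at under 1 CPM, and it shares exons with Gm20390 on the same strand. Cygb, the globin of fibroblasts, was at 84.8 CPM in WT replicate 2 and 30.7 to 34.6 CPM elsewhere, and its log2 fold change went from -0.60 (SE 0.38) to 0.020 (SE 0.10).

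**Figure D5:**
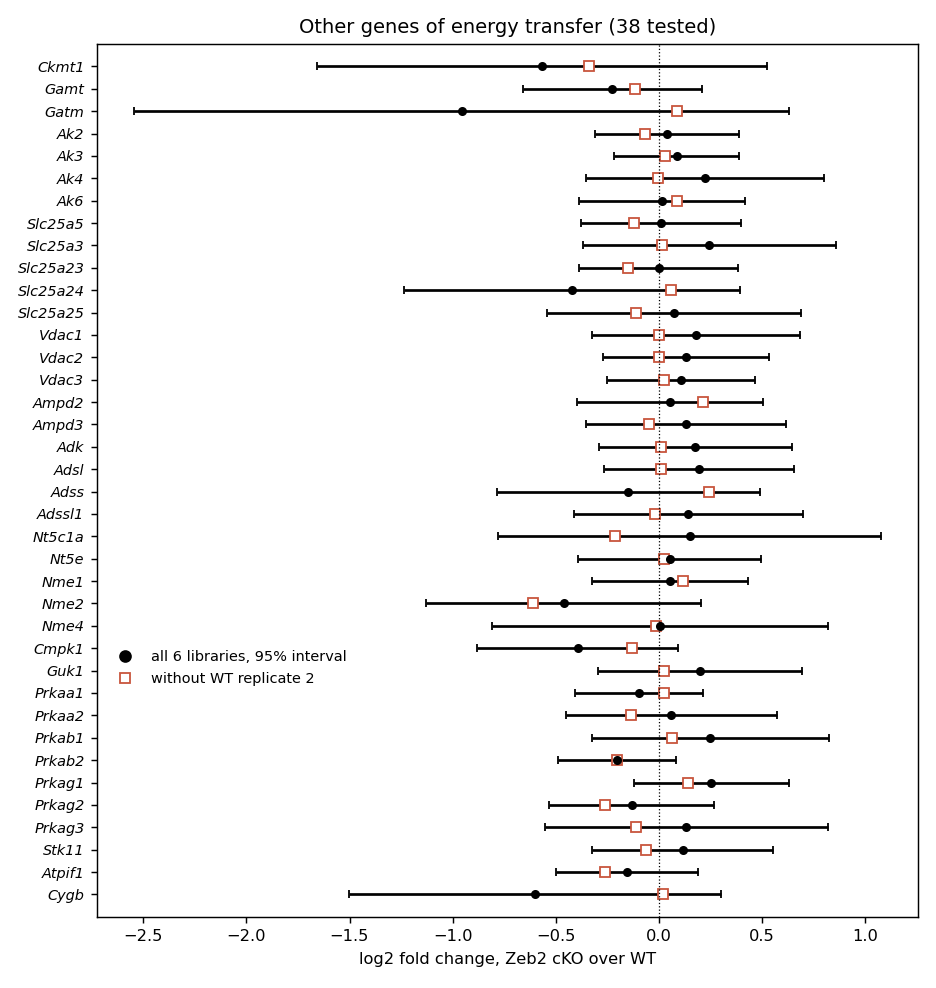
Log2 fold change of Zeb2 cKO over WT (x axis) for the 38 tested genes of the wider list, ordered by role, with 95% intervals from the fit of all 6 libraries (filled circles) and the estimate without WT replicate 2 (open squares). Every interval includes 0, and Gatm and Cygb, the genes with the lowest estimates, return to 0.087 and 0.020 in the 5-library fit.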

How the data were processed

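RNA-seq was available for hearts of 3 WT and 3 Zeb2 cKO mice, and libraries were grouped by their labels. The values used are unnormalised read counts for each gene, in a single table deposited by the authors. As the labels and methods describe, RNA was extracted with Trizol, libraries were prepared with TruSeq Stranded Total RNA and Ribo-Zero, and single-end reads of 75 bases were aligned and counted against Gencode M4 with the STAR workflow. The submitters' processing notes name GRCm38, mm10 and DESeq 1.2. The strand option and the treatment of multimapping reads are not given in the sources used here. Every count column matched a sample, and 0 were left over.

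Symbols, positions and lengths came from Gencode M21 (GRCm38) by gene identifier, for 14573 of the 14746 tested genes, and promoter sequences from RefSeq (GRCm38.p6), with an entry for 6 of the 7 genes. The genes named are the 7 members, Zeb2, and, of the wider list, the 6 with the smallest p, the 6 with the highest level per length and Ckmt1, Gamt, Gatm and Slc25a5. For Ckm and Ckb the 5 genes of closest pattern were added, and Ak3, Ak5 and the paralog matches were named after their values were seen. Adss and Nt5c1a, the ends of the range of the purine nucleotide cycle genes without WT replicate 2, were also named from their values. The members and lists were chosen with earlier results of these data known.

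Counts were filtered with filterByExpr, scaled with TMM and tested with edgeR 4.0.16 (glmQLFit and glmQLFTest, R 4.3.3), with Benjamini-Hochberg adjustment over all genes tested. SE is the absolute log2 fold change divided by the square root of F. DESeq2 1.42.0 was the alternative test. Log2 CPM used a prior count of 2. Ratios were tested by exact permutation (SciPy 1.17.1). Near-identical transcripts were sought with BLAST 2.17.0. The fit was tested on simulated data. Alternatives were another scaling, no filter, no mitochondrially encoded genes, marker covariates, a replicate block, other gene lengths and each library left out. The lengths of the transcripts that Gencode numbers first were added after seeing the data. Each library came from a separate mouse, and the labels name no batch.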

Additional observations from a re-analysis of the deposited data

How the results depend on the processing

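None of the 7 genes passed an adjusted p of 0.05 under any of 13 alternatives, and the direction of 5 of them depended on WT replicate 2. Leaving out each library in turn gave log2 fold changes of -0.078 to 0.52 for Ckm, -0.12 to 0.36 for Ckmt2, -0.011 to 0.41 for Ak1, -0.059 to 0.47 for Slc25a4 and -0.065 to 0.18 for Mb, the lowest value in each case being the fit without WT replicate 2. Ckb (-0.35 to -0.0033) and Slc6a8 (-0.19 to -0.030) stayed below 0. The log2 difference of Ckb to Ckm ran from -0.83 to 0.064, with the highest value without WT replicate 2, that of Slc25a5 to Slc25a4 from -0.56 to -0.050 and that of Ckmt2 to Ckm from -0.16 to -0.035. With the fibroblast marker mean as a covariate, the log2 fold change became -0.079 for Ckm, -0.12 for Ckmt2, -0.025 for Ak1, -0.052 for Slc25a4 and -0.080 for Mb, and was -0.0054 for Ckb and -0.17 for Slc6a8. With the cardiomyocyte marker mean it became -0.021 for Ckmt2 and -0.038 for Mb, stayed above 0 at 0.032 for Ckm, 0.048 for Ak1 and 0.061 for Slc25a4, and was -0.048 for Ckb and -0.14 for Slc6a8. The cause was not tested. DESeq2 called 2 genes higher in Zeb2 cKO, Slc46a2 and Mrap2, named after their values were seen, and edgeR called 0 in each of its fits, with 122 to 1134 genes at an unadjusted p under 0.05. Without WT replicate 1 that number was 1134 and without Zeb2 cKO replicate 1 it was 122, against 280 with all libraries. Without the filter it was 600, with the cardiomyocyte covariate 500.

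Same-numbered libraries came from different mice, and their deviations from the group means correlated at 0.088, -0.14 and -0.087. These correlations rest on 3 libraries per group, with WT replicate 2 apart, and cannot show whether the numbers pair the libraries. With the replicate number as a block, the log2 fold changes were 0.34 for Ckm, -0.19 for Ckb, 0.25 for Ckmt2, -0.080 for Slc6a8, 0.25 for Ak1, 0.34 for Slc25a4 and 0.085 for Mb, the ratio differences were -0.52, -0.32 and -0.085, and 0 genes were called.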
